A study of Arabidopsis thaliana with 32 samples.

Results

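The genes described here encode the minor light-harvesting antenna and the nuclear-encoded subunits of photosystem I and photosystem II in Arabidopsis thaliana, measured as polyadenylated RNA in whole seedlings that were kept in the dark or moved into light. They were chosen by gene identifier, with no measured value in the rule, as LHCB3 to LHCB6, LHCA1 to LHCA6 and nuclear PSA and PSB genes. All 34 listed genes are among the 19685 genes of the expression table, and the RefSeq annotation of TAIR10.1 gives the listed name for 34 of them. They fall into 6 antenna genes of photosystem II, 6 antenna genes of photosystem I, 12 subunit genes of photosystem I, 5 genes for proteins of the oxygen-evolving complex and 5 genes for small subunits of photosystem II.

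The study asked which genes depend on HY5, a bZIP transcription factor that promotes the light programme of seedlings. It holds 32 libraries in 12 groups of 5 genotypes, all of the Columbia ecotype. Col is the wild type Col-0, and hy5 is the homozygous mutant hy5/hy5, whose allele the labels do not name. The 3 other genotypes carry a tagged HY5 under the viral 35S promoter in the hy5/hy5 background: OX carries 35S:FLASH-HY5 with no further domain, VP16 carries 35S:FLASH-HY5-VP16 with an activation domain, and SRDX carries 35S:FLASH-HY5-SRDX with a repression domain. The 35S promoter is active in most tissues, so the transgenes are not limited to the places where HY5 itself is expressed, and the labels do not say whether a line is a single insertion event. All seeds received 1 h of white light to start germination and then 3 days of darkness. The light groups were then given simulated white light of 100 µmol per square metre per second for 1.5 h or 4 h. Each library came from 40 pooled seedlings. There are 3 libraries of each dark and each 1.5 h group, except that SRDX has 2 of each. At 4 h there are 2 libraries of SRDX and 2 of hy5 and none of the other genotypes. The labels do not say whether replicates came from separate sowings, so the p-values reflect only how far these libraries scatter, which may in part be technical.

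Each photosystem is a membrane complex in which a core that splits charge is surrounded by antenna proteins that bind chlorophyll and pass on the energy of absorbed light. Photosystem II takes electrons from water with the help of lumenal extrinsic proteins, and photosystem I passes electrons on to ferredoxin. The core reaction centres are encoded in the chloroplast, while the antenna and many peripheral subunits are encoded in the nucleus and imported, and seedlings raised in darkness hold little of either complex until light starts greening. The nuclear genes are known as light-responsive, and HY5 is known to bind promoter sequences that contain an ACGT core, the G-box among them.

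The stretches upstream of the annotated start are shown for 5 genes on which later results turn: LHCA1, which had the largest light response, LHCB4.1 and LHCB4.3, isoforms of the same antenna protein that moved differently, and PSBQ1 and PSBQ2, a further isoform pair. Each is the 150 bases before the start in RefSeq TAIR10.1, none overlaps another annotated gene, and each is written 5′ to 3′ on the strand of the gene. They lie at chr3:20341177-20341326 on the minus strand for LHCA1, chr5:208716-208865 on the plus strand for LHCB4.1, chr2:16745478-16745627 on the plus strand for LHCB4.3, chr4:11334202-11334351 on the plus strand for PSBQ1 and chr4:2673244-2673393 on the minus strand for PSBQ2. Capitals mark the G-box CACGTG and the I-box GATAAG in either orientation, and likewise the CCA1-type element AAAAATCT and the evening element AAAATATCT, where they occur.
LHCA1: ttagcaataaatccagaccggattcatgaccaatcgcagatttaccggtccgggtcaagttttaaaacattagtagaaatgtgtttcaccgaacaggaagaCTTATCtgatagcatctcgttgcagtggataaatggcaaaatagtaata
LHCB4.1: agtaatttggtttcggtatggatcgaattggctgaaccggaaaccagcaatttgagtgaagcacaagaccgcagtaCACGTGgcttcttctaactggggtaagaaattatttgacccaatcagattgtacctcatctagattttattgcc
LHCB4.3: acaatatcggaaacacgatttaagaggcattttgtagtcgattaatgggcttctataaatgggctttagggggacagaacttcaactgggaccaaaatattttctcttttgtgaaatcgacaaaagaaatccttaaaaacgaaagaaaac
PSBQ1: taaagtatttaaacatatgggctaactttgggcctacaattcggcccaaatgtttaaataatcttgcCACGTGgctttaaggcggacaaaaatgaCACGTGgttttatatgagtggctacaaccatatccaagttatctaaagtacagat
PSBQ2: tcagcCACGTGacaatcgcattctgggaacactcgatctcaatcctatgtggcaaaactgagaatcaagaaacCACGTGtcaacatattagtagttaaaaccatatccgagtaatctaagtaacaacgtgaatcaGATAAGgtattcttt

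The same letters were counted on both strands in the 250 bases before the start of the 34 genes and of 19378 genes of the table that have an annotated start. The G-box was in 8 of 34 windows (23.5%) and in 7.59% of all windows. Since the G-box contains it, the ACGT core is counted with it, and was in 17 of 34 windows (50%) and in 44.7% of all. The I-box was in 8 of 34 (23.5%) against 12.5% of all, the CCA1-type element in 3 (8.82%) against 6.77%, the evening element in 1 (2.94%) against 2.44%, TATAAA in 18 (52.9%) against 46.3% and CCAAT in 19 (55.9%) against 47.7%. The windows with a G-box were those of LHCB4.1, LHCB6, LHCA4, PSAE2, PSAH2, PSBQ1, PSBQ2 and PSBTN. Windows of 250 bases that overlap another gene were kept. Those of LHCB6, PSAE2, PSAH2, PSBQ1 and PSBTN each overlapped 1 other gene of the table. In LHCB4.1 the G-box lay 74 to 69 bases before the start, and the window of LHCB4.3 held none. A match of letters is a description of the sequence and not a binding site.

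Per library, 7499581 to 21420680 reads fell in the tabulated genes, and 1 read corresponds to 0.0457 to 0.131 CPM, the unit of the deposited values, which are reads per gene scaled to library size by the authors. All 34 genes were far above the level of 3 reads, which is 0.137 to 0.394 CPM and covers counting error only. The lowest value of the set was 7.82 CPM for LHCB4.3 in a dark hy5 library. HY5 itself had a mean of 24.6 ± 4.68 CPM (SD, n = 3) in dark Col and of 21.7 ± 2.52 CPM (n = 3) in dark hy5, ranges that overlap. Light for 1.5 h brought it to 216 ± 14.2 CPM in Col, with hy5 at 25.1 ± 0.0243 CPM, and hy5 reached 82.2 ± 4.45 CPM (n = 2) at 4 h, a called rise from the dark (1.88), while the libraries of OX, VP16 and SRDX held 760 to 16907 CPM. Transcripts of green cotyledons and of roots were both present, as whole seedlings should have, with RBCS1A at 3821 CPM or more and summed root markers at 77.1 CPM or more in every library. Some libraries stood apart from their groups for these genes. At 1.5 h, replicate 1 was above its group mean for 34 of 34 genes in Col, hy5, VP16 and SRDX and for 23 in OX. In the dark, Col replicate 2 and OX replicate 2 were below it for all 34, with median deviations of -0.31 and -0.27 on the log2 scale, Col replicate 3 and VP16 replicate 3 were above it for all 34, and at 4 h hy5 replicate 1 was above it for 33. The labels do not say what a replicate number marks.

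**Figure D1:**
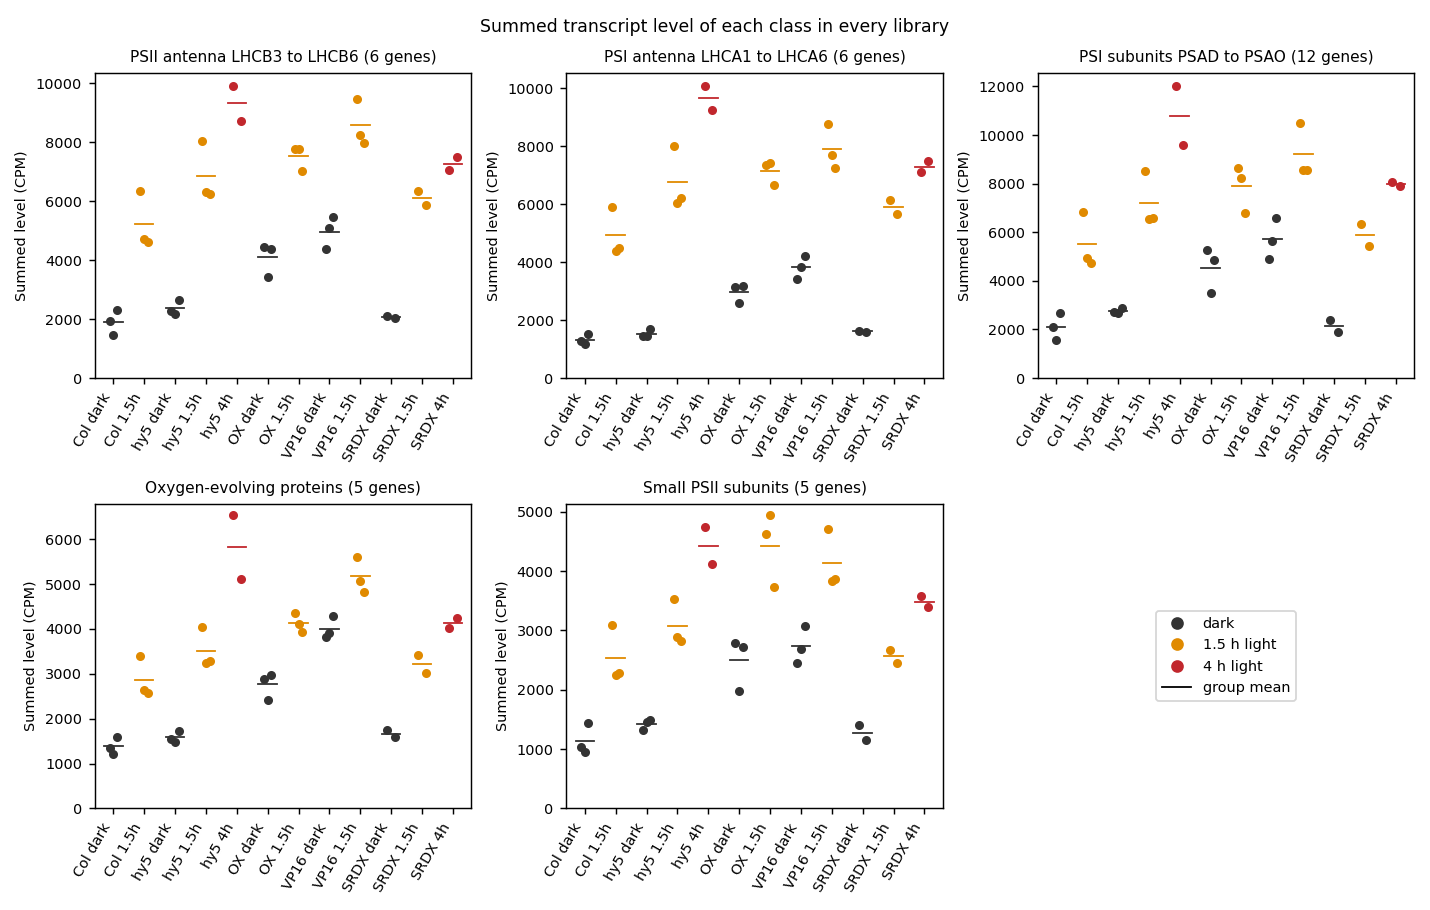
Summed level of each class in CPM (vertical axis, from 0) in every library (points) of the 12 groups (horizontal axis), with the group mean as a line. In dark OX and dark VP16 the points of all 5 classes lie above those of dark Col, hy5 and SRDX, and light groups lie higher in every genotype.

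Light raised nearly all of the set in Col, hy5 and SRDX and most of it in OX and VP16. Differences are given on the scale of log2(CPM + 1) with the standard error of a limma fit over all libraries, and a gene is called at a Benjamini-Hochberg adjusted p below 0.05 over all genes. After 1.5 h of light, 34 of 34 genes were called higher in Col and none lower, against 18.0% of all genes called higher and 17.9% lower. In hy5 it was 33 higher and 0 lower, against 16.4% and 15.7%, in OX 29 and 0, against 23.6% and 22.6%, in VP16 25 and 0, against 22.4% and 22.1%, and in SRDX 33 and 0, against 13.9% and 12.7%. After 4 h all 34 were called higher than in the dark in hy5, against 24.5% of all genes higher and 26.3% lower, and all 34 in SRDX, against 23.1% and 23.6%. The median difference of the set at 1.5 h was 1.33 in Col, 1.23 in hy5, 0.85 in OX, 0.75 in VP16 and 1.27 in SRDX, while the median of all genes lay between -0.02 and 0.01. The set's summed share of the reads in tabulated genes was 0.835% ± 0.148 (SD, n = 3) in dark Col. At 1.5 h it was 2.12% ± 0.369. In hy5 the shares were 0.976% ± 0.0429 in the dark and 2.77% ± 0.379 at 1.5 h. In RNA from whole seedlings, more cells that express a gene and more RNA per cell cannot be told apart.

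**Figure D2:**
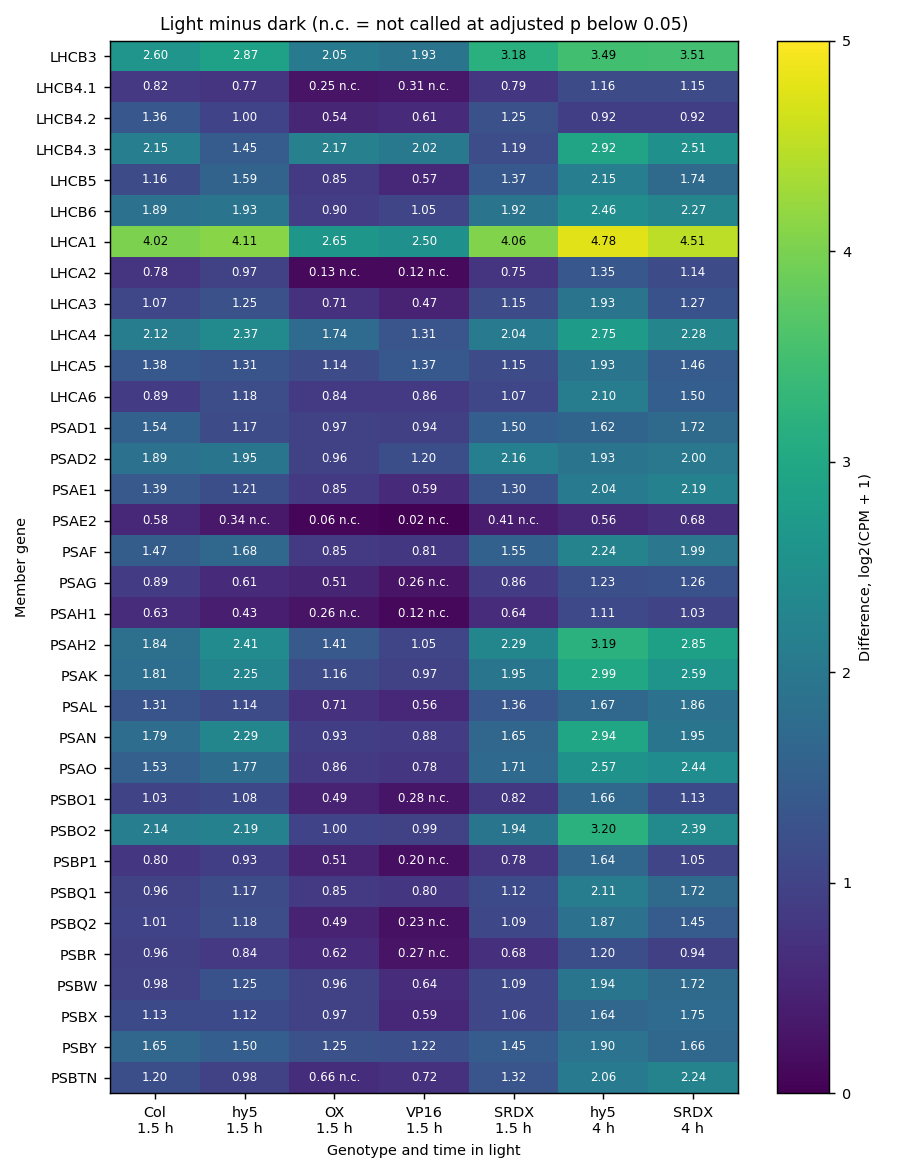
Difference between light and dark on the log2(CPM + 1) scale for each of the 34 genes (rows) in 5 genotypes at 1.5 h and in hy5 and SRDX at 4 h (columns), with n.c. where a difference was not called. LHCA1 is the brightest row in all 7 columns, up to 4.78 in hy5 at 4 h, and the OX and VP16 columns are darker than the others for most genes.

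Among the antenna genes of photosystem II, LHCB3 (AT5G54270), a subunit of the trimeric antenna, had the largest response in Col. Dark Col had 193, 150 and 223 CPM of it, and after 1.5 h of light the values were 1420, 1065 and 977 CPM, with no overlap, a difference of 2.60 ± 0.16 (adjusted p = 1.81e-14). LHCB6 (AT1G15820), the monomeric antenna protein CP24, rose by 1.89 in Col and 1.93 in hy5, and LHCB5 (AT4G10340), CP26, rose by 1.16 and 1.59. The 3 genes of CP29, which links the trimers to the core, differed in scale. LHCB4.1 (AT5G01530) rose by 0.82 in Col and LHCB4.2 (AT3G08940) by 1.36, while LHCB4.3 (AT2G40100), the least expressed of all 34 per kilobase of exon in dark Col, rose by 2.15. In hy5 at 4 h LHCB4.2 was no higher than at 1.5 h, with 1202 and 1135 CPM against 1374, 1157 and 1168 CPM (difference -0.07 ± 0.18, adjusted p = 0.81).

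Among the antenna genes of photosystem I, LHCA1 (AT3G54890) moved from the lower end of the set towards its top. Dark Col libraries had 93.7, 62.4 and 116 CPM, and those at 1.5 h had 1768, 1298 and 1292 CPM, a difference of 4.02 ± 0.19 (adjusted p = 1.24e-16). The dark hy5 libraries had 113, 112 and 131 CPM, rising to 2602, 1786 and 1887 CPM after 1.5 h and to 3360 and 3220 CPM after 4 h. No light library of either genotype came near a dark one. Per kilobase of exon, its mean in Col was 71.1 CPM in the dark, below that of 28 other members, and 1141 CPM at 1.5 h, where LHCA4 alone was higher at 1513 CPM. LHCA4 (AT3G47470), the partner of LHCA1 in the antenna belt, rose by 2.12 in Col and 2.37 in hy5. LHCA2 (AT3G61470) and LHCA3 (AT1G61520), the other belt proteins, rose by 0.78 and 1.07 in Col. LHCA5 (AT1G45474) and LHCA6 (AT1G19150), low-abundance proteins known for linking photosystem I to the NADH dehydrogenase-like complex, rose by 1.38 and 0.89.

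Of the subunits of photosystem I, PSAH2, PSAN and PSAK had the largest responses in hy5 at 1.5 h. PSAH2 (AT1G52230), a docking subunit for mobile antenna, rose by 2.41, PSAN (AT5G64040), on the lumenal plastocyanin side, by 2.29, and PSAK (AT1G30380), next to the antenna belt, by 2.25. PSAF (AT1G31330), which takes part in plastocyanin docking, rose by 1.68 and PSAO (AT1G08380) by 1.77. On the stromal side, where ferredoxin docks, PSAD1 (AT4G02770) rose by 1.17, PSAD2 (AT1G03130) by 1.95 and PSAE1 (AT4G28750) by 1.21. PSAL (AT4G12800), which borders PSAH in the complex, rose by 1.14 and PSAG (AT1G55670), which borders LHCA1, by 0.61. PSAH1 (AT3G16140), the second PSAH gene, rose by 0.43, the smallest called value (adjusted p = 0.0439). This call was lost when any 1 of the 6 dark or 1.5 h hy5 libraries was left out, with adjusted p from 0.0651 to 0.2, except replicate 2 at 1.5 h. PSAE2 (AT2G20260), the second PSAE gene, was the 1 gene of 34 not called in hy5, with 141, 141 and 157 CPM before and 209, 169 and 182 CPM after the light. The light libraries were all above the dark ones, but the difference of 0.34 ± 0.17 did not pass (adjusted p = 0.127), though it did with these groups fitted alone (0.00864), where 34 of 34 genes were called. Its difference was 0.58 in Col, called with an adjusted p of 0.00792 that became 0.14 without dark replicate 2, 0.0624 without replicate 1 at 1.5 h and 0.0517 with these groups fitted alone. It was 0.06, 0.02 and 0.41 in OX, VP16 and SRDX, none of them called.

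Among the oxygen-evolving proteins, PSBO2 (AT3G50820), the less expressed gene of the manganese-stabilising protein, went from 68.7, 59.2 and 73.4 CPM in dark Col to 377, 273 and 256 CPM at 1.5 h, a difference of 2.14 ± 0.14 (adjusted p = 1.1e-13). PSBO1 (AT5G66570), the more expressed gene, rose by 1.03. PSBP1 (AT1G06680), the next extrinsic protein, rose by 0.80, and PSBQ1 (AT4G21280) and PSBQ2 (AT4G05180) by 0.96 and 1.01. The small subunits of photosystem II rose in Col by 0.96 to 1.65. PSBR (AT1G79040), which helps PSBP to bind, rose by 0.96, PSBW (AT2G30570), which stabilises the supercomplexes with antenna, by 0.98, PSBX (AT2G06520) by 1.13, PSBTN (AT3G21055) by 1.198 and PSBY (AT1G67740) by 1.65.

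From 1.5 h to 4 h the set went on rising in hy5, where 23 genes were called higher and none lower, against 13.0% of all genes higher and 12.7% lower. This count was 9 without hy5 replicate 1 at 4 h and 18 to 26 without any other library. LHCB4.3 had the largest later rise, from 32.3, 23 and 21.9 CPM to 78.1 and 66.2 CPM (1.47 ± 0.19, adjusted p = 7.93e-07), then PSBTN (1.08) and PSBO2 (1.01), and all 5 oxygen-evolving genes were called. In SRDX 7 were called higher and none lower, against 10.8% and 12.2%, among them LHCB4.3 (1.32), PSAE1 (0.89), PSAO (0.73), PSBX (0.69), PSAK (0.64), PSBW (0.63) and PSBQ1 (0.60). That count fell to 1 without SRDX replicate 2 at 1.5 h, to 1 without SRDX replicate 1 at 4 h and to 4 without replicate 2 at 4 h, and it was 22 when these groups were fitted alone. Whether the later rise differed between hy5 and SRDX was not tested. The 4 h response given below starts from the dark, so it includes the first 1.5 h.

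In the dark, OX and VP16 seedlings had raised levels of most of these genes. Compared with dark hy5, 27 of 34 genes were called higher in OX and none lower, against 6.72% of all genes higher and 6.76% lower, and 31 in VP16 with none lower, against 11.1% in each direction. The summed level was 9274 to 10454 CPM in dark hy5, 13913 to 18527 CPM in OX and 18959 to 23616 CPM in VP16, with no overlap between hy5 and either line. Compared with dark Col, 33 genes were called higher in OX (none lower, against 9.11% and 7.12%) and 33 in VP16 (none lower, against 12.6% and 10.8%), the exceptions being LHCA6 in OX (0.32) and LHCB4.3 in VP16 (0.00). Comparisons with hy5 at the same light share the hy5 libraries, as those with Col share the Col libraries, so their values are given side by side and no overlap between them is counted.

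LHCA1 was at 352, 224 and 329 CPM in dark OX and 316, 376 and 428 CPM in dark VP16, against 113, 112 and 131 CPM in dark hy5, with no overlap. The differences from hy5 were 1.31 ± 0.19 and 1.64 ± 0.19 (adjusted p = 2.48e-05 and 2.95e-07). The largest differences in OX were those of PSBO2 (1.44), PSAK (1.43), PSAN (1.41) and LHCA5 (1.396), and in VP16 those of PSAK (1.74), PSAN (1.73), LHCA1 (1.64), PSAH2 (1.57), PSBO2 (1.57) and PSBQ2 (1.57). In the isoform pairs of PSAD, PSAH, PSBO and PSBQ the gene with the lower level in dark hy5 had the larger difference in both lines, while in PSAE and in the pair of LHCB4.1 and LHCB4.2 it had the smaller. LHCB4.3, the lower of its pair with LHCB4.1, had the larger difference in OX and the smaller in VP16. In OX the genes not called were LHCA6 (0.31), PSAD1 (0.01), PSAD2 (0.25), PSAG (0.39), PSAL (0.66), PSBY (0.12) and PSBTN (0.45). In VP16 they were LHCB4.3 (0.24), PSAD1 (0.43) and PSBY (0.49).

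LHCB4.3 and LHCA5 were ordered differently from the rest between the lines. In the dark LHCB4.3 was at 17.601, 17.7 and 24 CPM in OX and 10.2, 9.32 and 11.8 CPM in VP16, against 8.6, 7.82 and 9.62 CPM in hy5. All OX libraries were above all VP16 libraries, and VP16 overlapped hy5. LHCA5 was at 48.8, 41.1 and 46.9 CPM in dark OX, 29, 25.7 and 32.9 CPM in dark VP16 and 16.9, 14.6 and 18.7 CPM in dark hy5, the groups in that order without overlap. The direct difference between OX and VP16 was not tested.

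Other transcripts moved with these dark groups. Of 7 heat-shock genes, all 7 were lower than in hy5 in OX and all 7 in VP16, with summed levels of 493 to 725 CPM in hy5, 237 to 250.1 CPM in OX and 154 to 200.3 CPM in VP16. Of 4 root genes, none was called in OX, where EXPA7 had no read in at least 1 library, and in VP16 EXPA7, LRX1 and COBL9 were called higher and CASP1 lower, with sums of 172 to 193 CPM in hy5, 114 to 178 CPM in OX and 107 to 148 CPM in VP16. Of 7 seed storage genes 3 are in the table, and CRC was called higher in both lines, with sums of 0.995 to 1.55 CPM in hy5, 3.40 to 5.91 CPM in OX and 3.80 to 6.07 CPM in VP16. Of 2 genes of green cotyledons, RCA was called higher in both lines (0.69 in OX and 0.99 in VP16) and RBCS1A in VP16 alone (0.55), with sums of 5823 to 6854 CPM in hy5, 4667 to 6413 CPM in OX and 7736 to 11369 CPM in VP16. The part of these transcripts in the result was not tested.

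Few genes were called in dark Col or dark SRDX against hy5. In Col 0 genes were called higher and 1 lower, against 0.859% and 1.16% of all genes, with a median difference of -0.27. The gene was LHCB4.2, at 385, 278 and 491 CPM in Col and 579, 580 and 692 CPM in hy5, the groups not overlapping (-0.71 ± 0.16, adjusted p = 0.0142). The call was lost without Col replicate 1 (adjusted p = 0.0564), Col replicate 2 (0.157) or hy5 replicate 3 (0.0997) and with these groups fitted alone (0.0853), and without Col replicate 3, 6 genes were called. Same-numbered libraries of these groups deviated together, and with the replicate number as a block 10 genes were called lower and none higher, against 4.59% and 2.37% of all genes. The summed level was lower in Col in each same-numbered pair, at 7718 against 9327 CPM, 6375 against 9274 CPM and 9565 against 10454 CPM. CRC alone of the 14 heat-shock, root and seed storage genes was called in dark Col, higher, and its part was not tested. In SRDX, PSAN was called higher and PSAG and PSAH1 lower, against 5.19% of all genes higher and 4.52% lower. PSAN was at 118 and 122 CPM in dark SRDX against 77.1, 81 and 85.1 CPM in hy5 (0.56 ± 0.17, adjusted p = 0.0288), and PSAG at 311 and 225 CPM against 411, 420 and 442 CPM (-0.68 ± 0.21, adjusted p = 0.0391). Neither pair of groups overlapped, but the count of 3 fell to 0 without SRDX replicate 2, hy5 replicate 1 or hy5 replicate 3 and to 1 without hy5 replicate 2. Summed root markers were at 77.1 to 106 CPM in dark SRDX, with 2 of 4 called lower, and summed seed storage genes at 10.7 to 13.9 CPM, with 1 of 3 called higher, and their part was not tested.

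**Figure D3:**
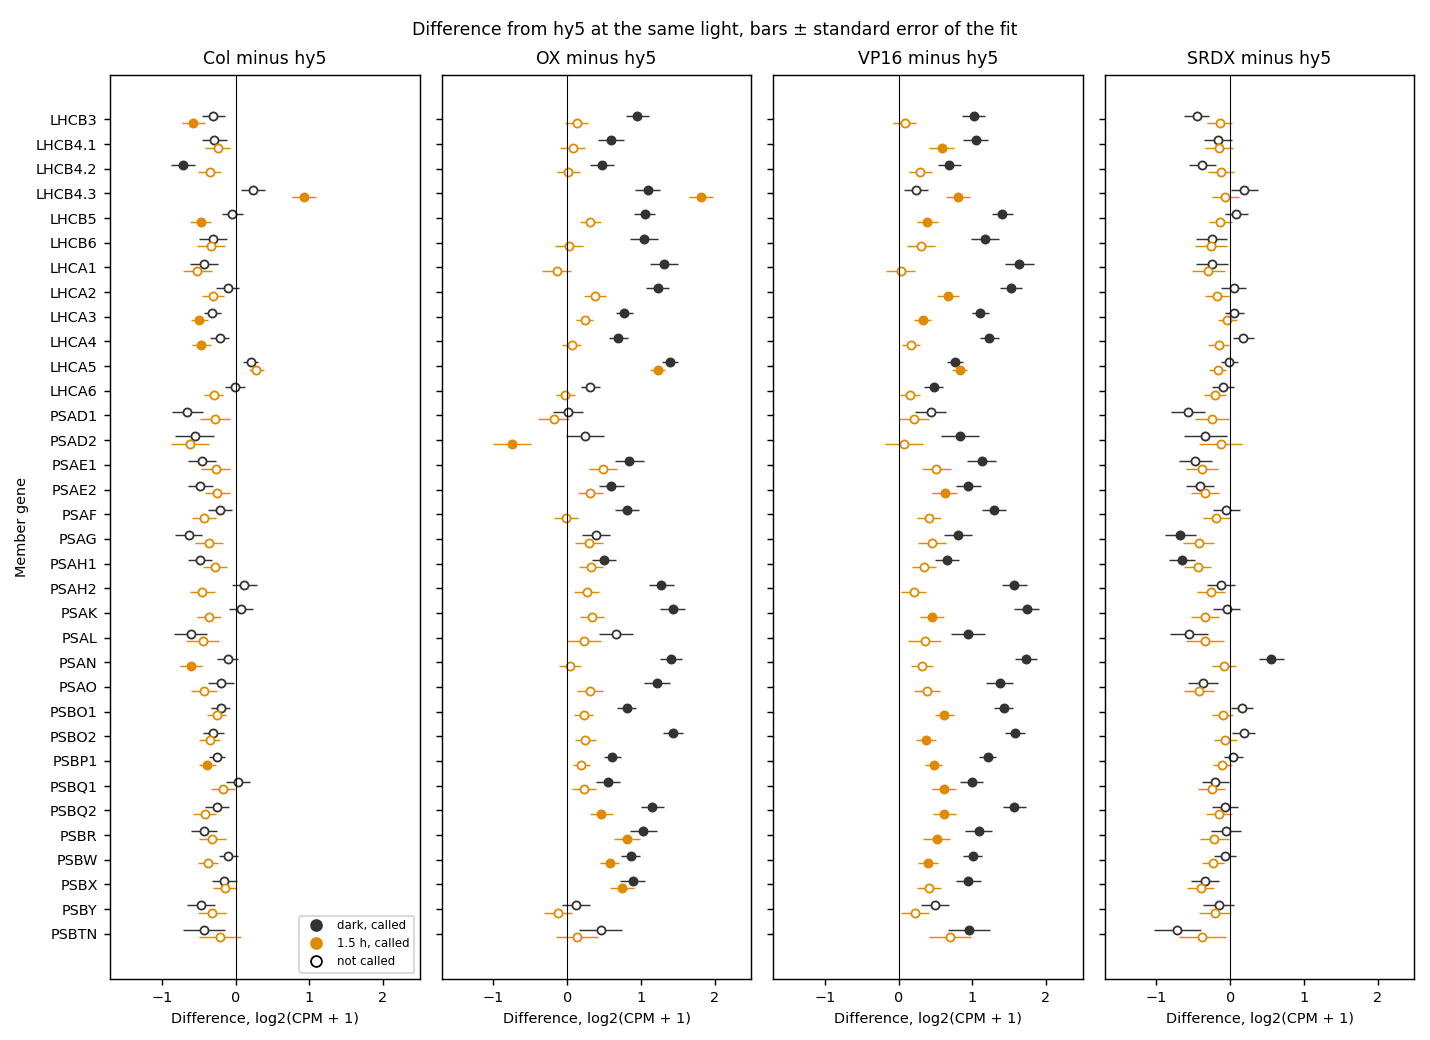
Difference from hy5 at the same light on the log2(CPM + 1) scale for each gene (rows) in Col, OX, VP16 and SRDX (panels), with bars of 1 standard error of the fit, dark in black and 1.5 h in orange, and filled points where called. In OX and VP16 the dark points lie to the right of the 1.5 h points for most genes, while LHCB4.3 in OX is farther right at 1.5 h (1.81) than in the dark (1.09).

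At 1.5 h of light OX and VP16 had fewer genes called against hy5 than in the dark. Col had more, as did the whole table, where 0.859% of genes were called higher and 1.16% lower in dark Col. In Col 1 gene was called higher than in hy5 and 6 lower, against 5.11% and 4.05% of all genes. LHCB4.3 was higher, at 62.7, 44.1 and 43.3 CPM against 32.3, 23 and 21.9 CPM in hy5, without overlap (0.93 ± 0.17, adjusted p = 0.000163). The genes called lower were PSAN (-0.61), LHCB3 (-0.57), LHCA3 (-0.49), LHCB5 (-0.48), LHCA4 (-0.47) and PSBP1 (-0.38). The total of 7 became 16 without Col replicate 1, 3 without Col replicate 2, 2 without Col replicate 3 and 1 without hy5 replicate 1, and it was 3 with these groups fitted alone. LHCB4.3 kept its call under each of these. With the replicate number as a block 28 genes were called, 2 higher and 26 lower. The share of all genes called under that block is not given here. CRC was the 1 seed storage gene called, higher in Col, and no heat-shock or root gene was called. Of the green cotyledon genes RCA was called lower in Col (-0.69), with sums of 7354 to 10224 CPM in Col and 10236 to 12141 CPM in hy5, and their part was not tested.

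In OX at 1.5 h 6 genes were called higher than in hy5 and 1 lower, against 12.6% of all genes in each direction. LHCB4.3 was at 93.4, 95.7 and 86.6 CPM (1.81 ± 0.17, adjusted p = 6.5e-10) and LHCA5 at 103, 106 and 95.5 CPM against 46.7, 40.3 and 41.3 CPM in hy5 (1.23 ± 0.10, adjusted p = 1.25e-10). PSBR was at 1918, 2110 and 1428 CPM against 1154, 957 and 962 CPM (0.81 ± 0.18, adjusted p = 0.000986). None of the 3 overlapped hy5. PSBX (0.75), PSBW (0.58) and PSBQ2 (0.46) were also higher, and PSAD2 was lower, at 513, 286 and 253 CPM against 684, 483 and 534 CPM, where OX replicate 1 lies within the range of hy5 (-0.75 ± 0.26, adjusted p = 0.0334). The PSAD2 call was lost without hy5 replicate 1 or 3 or OX replicate 2 or 3 (adjusted p = 0.0639 to 0.19), and the total of 7 became 11 without hy5 replicate 1. Of the heat-shock genes 3 of 7 were called lower in OX, at 429 to 788 CPM in sum against 513 to 806 CPM in hy5, and no root or seed storage gene was called, and their part was not tested.

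In VP16 at 1.5 h 15 genes were called higher and none lower, against 13.1% and 11.8%. They included all 5 oxygen-evolving genes, from PSBO2 (0.37) to PSBQ1 (0.62), PSBQ2 (0.62) and PSBO1 (0.62), and the largest called differences were those of LHCA5 (0.83 ± 0.10), LHCB4.3 (0.81 ± 0.17) and LHCA2 (0.67 ± 0.15). LHCA5 was at 84.2, 71.5 and 74.9 CPM, between OX and hy5. The count was 8 without VP16 replicate 1, 8 without hy5 replicate 2 and 9 without hy5 replicate 3. Here 5 of 7 heat-shock genes were called higher, with sums of 918 to 1988 CPM, and 3 root genes higher and CASP1 lower, with sums of 116 to 130 CPM against 152 to 158 CPM in hy5, and their part was not tested. In SRDX at 1.5 h the limma fit called 0 genes in either direction, against 4.26% of all genes higher and 2.24% lower, with 3 at an unadjusted p below 0.05 and 0 by edgeR's quasi-likelihood test, and it called 3 with these groups fitted alone. The differences ran from -0.44 to -0.04, all 34 below 0. The sum of seed storage genes was 13.8 to 15.8 CPM there, with 3 of 3 called higher than in hy5, and that of root genes 94.6 to 111 CPM, with 2 of 4 called lower, and their part was not tested.

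**Figure D4:**
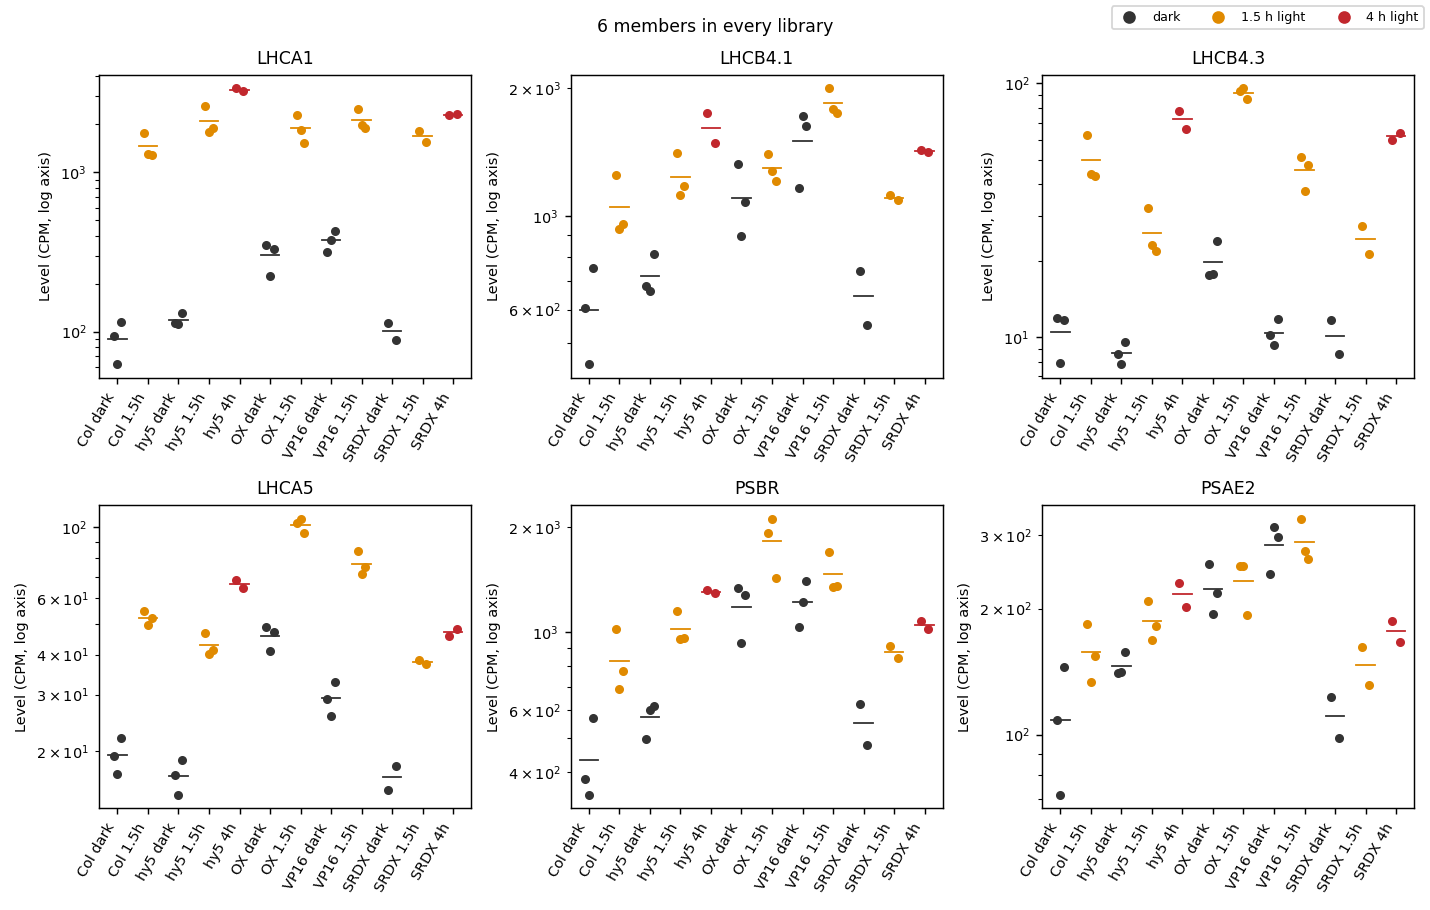
Level in CPM (logarithmic vertical axes) of LHCA1, LHCB4.1, LHCB4.3, LHCA5, PSBR and PSAE2 in every library (points) of the 12 groups (horizontal axis), with group means as lines. LHCA1 at 1.5 h is 1292 CPM or more in all genotypes, whereas LHCB4.3 at 1.5 h ranges from 21.2 CPM in SRDX to 95.7 CPM in OX.

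The size of the light response was compared with that of hy5 by an interaction term. This term is the difference from hy5 at 1.5 h minus that in the dark, so it is not separate from the dark differences above. The 1.5 h differences from hy5 were above 0 for 28 genes and below 0 for 6 in OX, and above 0 for all 34 in VP16. In OX 15 genes responded less than in hy5 and 1 more, against 4.73% and 5.98% of all genes, and in VP16 17 responded less and 0 more, against 3.47% and 5.0%. LHCA1 had the largest reduction in both, -1.46 ± 0.28 in OX (adjusted p = 0.000404) and -1.61 ± 0.28 in VP16 (adjusted p = 0.000146), and its light levels were alike, at 2298, 1848 and 1532 CPM in OX and 2501, 1976 and 1882 CPM in VP16 against 2602, 1786 and 1887 CPM in hy5, the ranges overlapping. PSAN followed in both, with -1.36 and -1.42, then PSBO2 (-1.19) and PSAK (-1.09) in OX and PSAH2 (-1.36), PSAK (-1.28) and PSBO2 (-1.20) in VP16. The gene that responded more in OX was LHCB4.3 (0.72 ± 0.23, adjusted p = 0.0443), a call lost by edgeR's test (adjusted p = 0.112), under the pseudocount of 0.25 (0.0701) and under median-of-ratios scaling (0.0514). The total of 16 in OX became 8 without hy5 replicate 1 at 1.5 h and 9 without dark OX replicate 3. None of the 5 small photosystem II subunit genes was called in OX, with differences from -0.32 to -0.14, and 1, PSBW, was called in VP16 (-0.61). In Col 0 genes were called, against 1.11% of all genes with a smaller response and 2.9% with a larger, with 4 at an unadjusted p below 0.05 and 0 by edgeR's test, and LHCB4.3 was called in Col without hy5 replicate 1 at 1.5 h (0.86, adjusted p = 0.0333), and PSAN without Col replicate 1 at 1.5 h (-0.69, adjusted p = 0.0397). In SRDX 0 were called, against 0.0102% smaller and 0.117% larger, with 1 at an unadjusted p below 0.05 and 0 by edgeR's test. Of 7 heat-shock genes, 7 were called higher in light in VP16, 4 each in OX and Col, 3 in SRDX and 0 in hy5. The response of RCA was smaller than in hy5 in OX (-0.88) and in VP16 (-0.75), both called. The part of these transcripts in the result was not tested.

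At 4 h SRDX could be compared with hy5 alone. The count was 8 genes lower and none higher, against 9.65% of all genes lower and 8.24% higher, so the share of the set (8 of 34) stood above the background in 1 direction. They were PSAH1 (-0.73), LHCA6 (-0.70), PSAG (-0.65), PSBO2 (-0.63), LHCA3 (-0.61), PSBQ1 (-0.59), PSBP1 (-0.55) and LHCA5 (-0.49). LHCA6 was at 96.7 and 100 CPM in SRDX and 143 and 180 CPM in hy5, and LHCA3 at 961 and 1016 CPM against 1680 and 1350 CPM, without overlap. All 34 differences were below 0, with a median of -0.43 against -0.01 for all genes. The count was 1 without hy5 replicate 1, 3 without SRDX replicate 1, 5 without SRDX replicate 2 and 4 with these groups fitted alone, and leaving out a library leaves 1 in its group, which is then taken to vary like the others. Seed storage genes were higher in SRDX (2 of 3 called, 9.80 to 13.2 CPM in sum against 1.43 to 6.66 CPM), and their part was not tested. The response from dark to 4 h was smaller than in hy5 for 4 genes and larger for none, against 5.74% and 4.34% of all genes. These were PSAN (-0.99 ± 0.25, adjusted p = 0.00923), PSBO2 (-0.81), LHCA3 (-0.66) and PSBP1 (-0.59), and the count was 1 without dark SRDX replicate 1, without SRDX replicate 1 at 4 h or without hy5 replicate 1 at 4 h, 2 without dark hy5 replicate 1 or SRDX replicate 2 at 4 h, and 2 with these groups fitted alone.

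Where more than 1 gene encodes the same subunit, light shifted the balance in the same direction in all 5 genotypes for 5 of 7 pairs. LHCB4.1 is in more than 1 pair, so the pairs are not all separate results. The log2 ratio of the CPM + 1 of the genes in a pair was compared between 1.5 h and dark, averaged over the 5 genotypes, with an exact two-sided permutation test of the light labels within genotype, and p-values were adjusted over the 7 pairs. The smallest p that the 960000 permutations can give is 2.083e-06, or 2.917e-06 adjusted, and it was reached by 5 pairs. PSAH1 to PSAH2 changed by -1.38, in the same direction in 5 of 5 genotypes. In hy5 PSAH1 was at 219, 207 and 225 CPM in the dark and PSAH2 at 76.5, 85.6 and 63.9 CPM, while at 1.5 h they were at 334, 265 and 280 CPM and 506, 379 and 341 CPM, a shift towards PSAH2. The mean log2 ratio of CPM + 1 lay above 0 in the dark and below 0 in light in all 5 genotypes. Which gene is the higher depends on length, since per kilobase of exon PSAH2 was already above PSAH1 in dark OX (263 against 238 CPM) and dark VP16 (321 against 267 CPM) and below it in dark hy5 (107 against 167 CPM), the annotated exons of PSAH1 being the longer. LHCB4.1 to LHCB4.3 changed by -1.21, PSBO1 to PSBO2 by -0.91 and LHCB4.1 to LHCB4.2 by -0.36, and PSAE1 to PSAE2 by 0.79, each in 5 of 5 genotypes.

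PSAD1 to PSAD2 changed by -0.41 (adjusted p = 9.965e-05, exact permutation test), falling in 4 of 5 genotypes, from -0.79 in hy5 to 0.01 in OX. PSBQ1 to PSBQ2 changed by 0.18 (adjusted p = 0.0107, exact permutation test), with a positive sign in 3 of 5, and here the genotypes stood apart, at 0.36 in OX and 0.57 in VP16 against -0.05 in Col, -0.01 in hy5 and 0.03 in SRDX. The dark log2 ratio of that pair was 1.13 ± 0.134 in Col and 0.85 ± 0.0682 in hy5 (SD, n = 3). It was 0.24 ± 0.167 in OX and 0.27 ± 0.0471 in VP16 (n = 3), these 2 groups below all other dark libraries. The coding sequences of the pairs are 65.4% (LHCB4.1 and LHCB4.3) to 87% (PSAH1 and PSAH2) identical with identical runs of at most 35 bases, and the read length and the treatment of reads that fit more than 1 gene are not given in the sources used here, so reads may have been divided between pair members with some error.

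**Figure D5:**
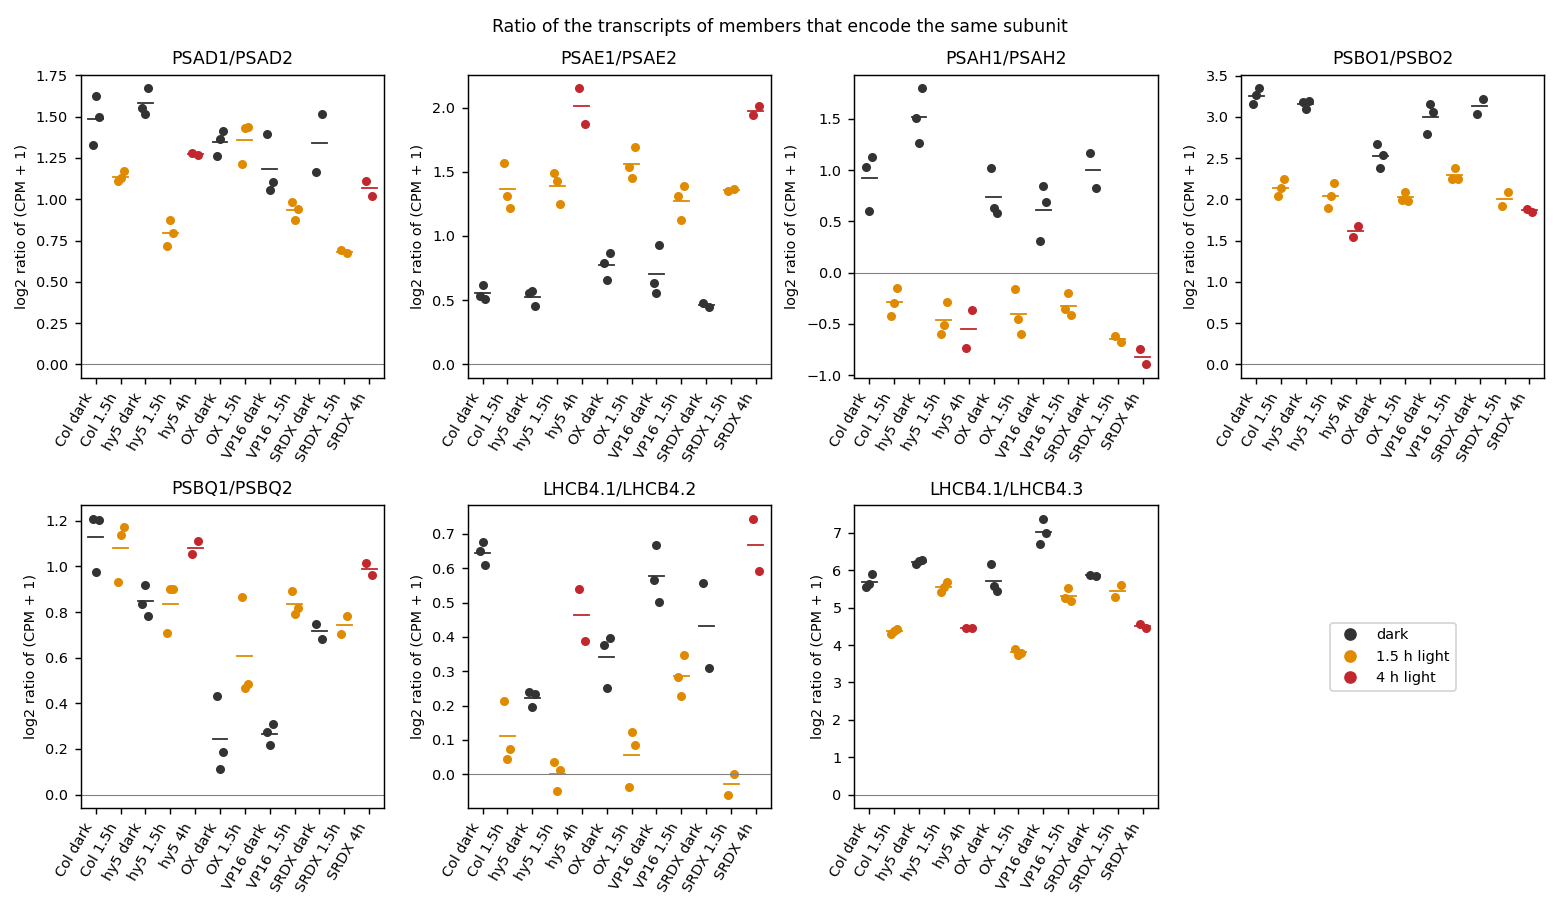
Ratio of the transcripts of the 2 genes in each of 7 pairs, as log2 of the ratio of CPM + 1 (vertical axes), in every library (points) of the 12 groups (horizontal axis), with group means as lines and a grey line at 0. The mean of PSAH1/PSAH2, not corrected for gene length, is above 0 in the dark and below 0 in light in every genotype, and the PSBQ1/PSBQ2 points of dark OX and dark VP16, at 0.43 or less, lie below the other dark groups.

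Neighbouring pathways give a scale for these values. The 8 LHCB1 and LHCB2 genes of the major antenna were all called higher at 1.5 h in Col and in hy5. Their median difference in Col was 4.00. In the dark 6 of 8 were higher in OX than in hy5, and 8 of 8 in VP16. Their sequence identity was not measured, and how reads that fit several of them were counted is not given in the sources used here. The 12 genes of electron transport and ATP synthase were all called higher at 1.5 h in Col (median 0.97), and in the dark 8 were higher and 1 lower in OX and 9 higher and none lower in VP16. PSBS, the photoprotective sensor of photosystem II, did not move with most of the photosystem genes between genotypes. It was at 325 ± 7.68 CPM in dark hy5, 253 ± 34.8 CPM in dark OX and 325 ± 26.7 CPM in dark VP16, and at 1.5 h at 563 ± 61.1 CPM in hy5 against 1143 ± 133 CPM in Col, 1193 ± 71.6 CPM in OX and 1080 ± 127 CPM in VP16 (SD, n = 3), with called differences from hy5 of 1.02, 1.08 and 0.94. Within the set, LHCB4.3 was likewise called higher than hy5 at 1.5 h in Col, OX and VP16. Of 14 genes of chlorophyll synthesis and its GLK regulators, 12 were called higher and 2 lower at 1.5 h in Col. The latter were PORA (-1.68) and PORB (-1.81), reductases of chlorophyll synthesis. In the dark 8 of the 14 were higher than in hy5 and none lower in OX, and likewise 8 in VP16. GLK1 and GLK2, known regulators of antenna genes, differed from dark hy5 by -0.25 and 0.29 in OX, neither called, and by -0.22 (not called) and 0.43 (called) in VP16.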

How the data were processed

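Polyadenylated RNA of whole seedlings was sequenced from stranded libraries, 1 per sample, per the labels' protocols, and 32 libraries in 12 groups were used. Per the submitters' processing notes the tools included HTSeq 0.6.0, TopHat2 2.0.11, edgeR 3.16.5, Bowtie2 2.2.2.0, CASAVA 1.8.2 and SAMtools 0.1.19.0, and the build was TAIR10, and the strand setting and the handling of reads that match several genes are not given in the sources used here. The authors deposited 1 table of CPM for 19685 genes. Its columns sum to 925942 to 1066829, so the authors' deposited values are a signal scaled by an effective library size, a departure from the planned unit that left the test as it was. Whole reads were recovered from the steps between values, 100% of them whole within 0.01 reads, at 7499581 to 21420680 reads per library.

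log2(CPM + 1) was fitted with limma 3.58.1 (R 4.3.3) as 1 mean per group over all libraries with a mean-variance trend, and p-values were adjusted over all 19685 genes by Benjamini-Hochberg, with calls at 0.05. A filter of 1 CPM in 2 libraries removed 0 genes. The fit was tested on simulated data. Alternatives were a pseudocount of 0.25, no filter, median-of-ratios scaling, the compared groups alone, the replicate number as a block, edgeR 4.0.16 on recovered reads, and leaving out each library. Same-numbered libraries deviated together in all pairs for dark Col against dark hy5 (correlations 0.172, 0.215 and 0.306). All correlations were also positive in other comparisons, such as Col against hy5 at 1.5 h (0.204, 0.0491 and 0.235). The labels do not say what a number marks. Pair ratios used exact permutations (Python 3.11.15 with numpy 2.4.6). Promoters and coding sequences came from RefSeq TAIR10.1, and coding identity from Biopython 1.88 alignments, a measure chosen after the data were seen. Any of the 34 genes could be named, with values per library for those that open a role class or differ most or least in it, and other genes come only from the lists. The genes and lists were chosen with earlier results of these data known. The authors' table of fold changes was not used.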

Additional observations from a re-analysis of the deposited data

Results flagged for a closer look

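The light response differed from that of hy5, by the interaction term of the limma fit, for 16 genes in OX and 17 in VP16 at 1.5 h and for 4 in SRDX at 4 h, and each of these genes was singled out because that difference itself passed the test. Values are differences in response on the log2(CPM + 1) scale, with negative values for a smaller response than in hy5. They are the interaction results given earlier and are not separate from the dark differences from hy5.

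In OX these were LHCB3 (-0.8212), LHCB4.3 (0.7229), LHCB5 (-0.7397), LHCB6 (-1.021), LHCA1 (-1.456), LHCA2 (-0.8456), LHCA3 (-0.5355), LHCA4 (-0.6307), PSAF (-0.8313), PSAH2 (-1.009), PSAK (-1.092), PSAN (-1.364), PSAO (-0.9093), PSBO1 (-0.5865), PSBO2 (-1.192) and PSBQ2 (-0.6929). LHCB4.3 was the 1 gene with the larger response.

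In VP16 these were LHCB3 (-0.9402), LHCB5 (-1.017), LHCB6 (-0.8747), LHCA1 (-1.607), LHCA2 (-0.8517), LHCA3 (-0.776), LHCA4 (-1.062), PSAF (-0.8736), PSAH2 (-1.364), PSAK (-1.281), PSAN (-1.415), PSAO (-0.9809), PSBO1 (-0.8046), PSBO2 (-1.202), PSBP1 (-0.7325), PSBQ2 (-0.9483) and PSBW (-0.6099). In SRDX at 4 h these were LHCA3 (-0.6631), PSAN (-0.9919), PSBO2 (-0.8115) and PSBP1 (-0.5906). The comparisons of OX and VP16 share the same hy5 libraries. No group was large enough to look for single libraries far from the others by a set criterion.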

How the results depend on the processing

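Counts of the 34 genes called stayed within 1.5 times of the reported count in 138 of 150 recomputations that kept all libraries, and in 131 of 163 that left 1 library out, and no direction was reversed. All 14 recomputed changes of pair ratios were kept with all libraries, as were 196 of 196 with 1 left out. With only the compared groups in the fit, the count changed to 22 in SRDX between 1.5 h and 4 h, 0 in dark Col against hy5, 3 in Col and 3 in SRDX against hy5 at 1.5 h, 4 in SRDX against hy5 at 4 h and 2 for its 4 h response against that of hy5. With the replicate number as a block it changed to 25, 10, 28 and 12 for the first 4 of these, to 2 for the last, and to 1 for the response of Col against that of hy5. Earlier paragraphs give block values for Col against hy5 in the dark and at 1.5 h, and the other block values are given only here. Leaving out 1 library gave 9 to 26 genes for hy5 and 1 to 6 for SRDX between 1.5 h and 4 h. Against hy5 it gave 0 to 6 in dark Col, 0 to 4 in dark SRDX, 1 to 16 in Col, 5 to 11 in OX and 8 to 19 in VP16 at 1.5 h, and 1 to 9 in SRDX at 4 h. For the responses it gave 0 to 1 in Col, 8 to 16 in OX and, at 4 h, 1 to 5 in SRDX. The causes of these changes were not tested. Every gene was above 3 reads in every library, and the groups hold 2 or 3 libraries each.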
